A study of Mus musculus with 4 samples.

Results

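Activity-induced immediate early genes were measured in dorsal hippocampus from female mice on a control intake or a 20-fold iodine intake. The group was fixed by name as 10 genes (Fos, Fosb, Junb, Egr1, Egr2, Egr4, Arc, Npas4, Nr4a1 and Dusp1), and a probe was assigned to a gene through the RefSeq transcript accession printed for it on the array. All 10 genes were found, with 12 of the 56605 non-control probes. Of those 12 probes 11 were well above background on all 4 arrays, and the other, a Fosb probe, was well above background on none. The 10 genes are among 16794 genes that could be tested.

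The arrays were Agilent 1-colour mouse arrays hybridised with Cy3-labelled RNA, taken after the mice had been through a set of behavioural tests. The control group and the 20-fold iodine group each had 2 arrays, labelled replicate 2 and replicate 3, and other replicates were not analysed here. Strain, age, the period of iodine intake and the time between the last test and dissection are not given in the sources used here. The labels do not say that replicates came from separate mice, so p-values describe the spread of these samples alone, part of which may be technical. The arrays shared 1 slide, with the control arrays next to each other and the iodine arrays next to each other, so slide position and group cannot be told apart. An exact permutation test of 2 against 2 arrays cannot give a two-sided p below 0.333.

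Immediate early genes are transcribed within minutes of synaptic activity, without the need for newly made protein. Calcium entry through NMDA receptors and voltage-gated channels activates kinases that phosphorylate CREB, which binds the cyclic AMP response element (CRE), and ELK proteins, which act together with SRF bound to the CArG box. In the hippocampus the messenger RNA of many of them rises after exploration or learning and falls again soon after. A level can thus in part reflect recent activity of the neurons that took part, but a bulk signal does not separate that part from expression at rest. Fos, FosB and JunB form AP-1 dimers, the EGR proteins are zinc finger factors, NPAS4 is a basic helix-loop-helix factor induced by calcium entry, Nr4a1 encodes the orphan nuclear receptor NUR77, Arc encodes a synaptic protein that drives removal of AMPA receptors, and Dusp1 encodes a phosphatase that switches off MAP kinases.

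The sequences upstream of the start sites are shown because the genes are defined by this shared route of induction, while their levels did not all differ in the same direction. RefSeq (GRCm38.p6) gave start-site windows used here for 8 of the 10 genes. Arc had no window and that of Egr1 is not reported here, so the motif counts below cover neither gene. The windows are the 250 bases before the start, read 5′ to 3′ on the strand of the gene: Fos at chr12:85473640-85473889 (plus strand), Nr4a1 at chr15:101266596-101266845 (plus strand), Egr2 at chr10:67537619-67537868 (plus strand), Npas4 at chr19:4989972-4990221 (minus strand) and Dusp1 at chr17:26508473-26508722 (minus strand). Capitals mark the CRE core (TGACG, or CGTCA on the other strand), the full CRE (TGACGTCA), which holds the core on both strands, and the CArG box.
Fos: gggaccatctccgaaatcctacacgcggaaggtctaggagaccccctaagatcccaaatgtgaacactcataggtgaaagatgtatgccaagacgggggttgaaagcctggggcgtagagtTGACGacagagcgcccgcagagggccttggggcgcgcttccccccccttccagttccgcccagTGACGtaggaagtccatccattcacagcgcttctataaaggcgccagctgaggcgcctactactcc
Nr4a1: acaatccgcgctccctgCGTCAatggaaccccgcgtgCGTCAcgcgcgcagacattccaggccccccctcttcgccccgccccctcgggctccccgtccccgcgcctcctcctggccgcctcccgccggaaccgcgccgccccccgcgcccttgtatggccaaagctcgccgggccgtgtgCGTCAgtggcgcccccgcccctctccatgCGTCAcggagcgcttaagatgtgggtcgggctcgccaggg
Egr2: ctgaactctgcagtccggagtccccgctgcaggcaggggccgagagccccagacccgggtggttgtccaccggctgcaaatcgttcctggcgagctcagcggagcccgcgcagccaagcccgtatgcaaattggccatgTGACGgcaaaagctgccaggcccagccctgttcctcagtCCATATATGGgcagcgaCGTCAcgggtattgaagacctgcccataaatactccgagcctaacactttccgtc
Npas4: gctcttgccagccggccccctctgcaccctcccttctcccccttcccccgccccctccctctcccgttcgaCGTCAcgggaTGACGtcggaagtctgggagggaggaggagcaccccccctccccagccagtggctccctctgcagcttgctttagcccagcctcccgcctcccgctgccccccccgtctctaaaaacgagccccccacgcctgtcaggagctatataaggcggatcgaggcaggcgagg
Dusp1: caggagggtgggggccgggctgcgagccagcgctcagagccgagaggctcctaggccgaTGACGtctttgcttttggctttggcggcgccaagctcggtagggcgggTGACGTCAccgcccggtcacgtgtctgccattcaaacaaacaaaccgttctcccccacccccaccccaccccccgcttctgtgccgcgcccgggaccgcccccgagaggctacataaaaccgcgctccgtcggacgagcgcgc

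A CRE core on either strand was present upstream of at least 1 start site in 8 of these 8 genes, against 19.8% of the 27025 genes with a window in the table. By window it was present in 10 of 12, against 17.8% of all windows. Egr2 had several start sites, and the windows without a core were all of Egr2. Nr4a1 had 4 matches, Dusp1 had 3, and Fos, Egr4, Npas4 and the Egr2 window shown had 2 each. Fosb and Junb had 1 each. In Fos the match nearest to the start ended 62 bases upstream of it, with a TATA box (TATAAA, present in 14.3% of all genes on either strand) between that match and the start. The full CRE was found in Dusp1 alone of the 8, against 1.77% of all genes. The CArG box was found in Egr2 alone of the 8, against 1.62% of all genes. The EGR site (GCGNGGGCG, either strand) was found in Fosb and Nr4a1, against 5.33% of all genes, and the AP-1 site (TGANTCA, either strand) in 0 of the 8, against 7.82%. Npas4, whose mean was higher in iodine, and Fos, whose mean was lower with overlapping groups, each had 2 CRE cores in these windows. Neither had a full CRE or a CArG box there. A link between motifs and the direction of a difference was not tested. A match describes letters within 250 bases and is not a measured binding site, and a gene without one may carry the motif farther away.

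In the comparison of 20-fold iodine with control, 9 of the 10 genes had a lower mean in iodine and Npas4 had a higher one. The median log2 difference over the 10 genes was -0.21, against -0.01 over all 16794 genes, of which 54.4% were lower. None of the 10 genes (0 of 10) passed limma at a Benjamini-Hochberg adjusted p of 0.05, and the share of all genes that passed was 0%, as it was over the 38231 probes tested singly (3448 with an unadjusted p under 0.05). At an unadjusted p under 0.05 there were 3 members, Npas4, Egr1 and Dusp1, against 7.35% of all genes (1234 genes). The 2 groups of arrays did not overlap in 4 members, with Egr1, Nr4a1 and Dusp1 lower and Npas4 higher in iodine. Among all genes 21.9% were lower without overlap and 17.9% higher without overlap, so the count of 3 of 10 lower lies near that background.

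The count of lower genes changed with 1 array. Control replicate 3 was the highest of the 4 arrays for 8 of the 10 genes, the exceptions being Npas4 and Dusp1, whereas 24.6% of all genes were highest there. Without that array 5 of the 10 genes were lower in iodine and the median difference was -0.02. Without any 1 of the other arrays 8 or 9 of the genes were lower and the median was between -0.29 and -0.20. The median deviation of the 10 genes from their own 4-array means was -0.11 and 0.23 in control replicates 2 and 3, and -0.09 and -0.14 in iodine replicates 2 and 3, so the replicates of the control group lay farther apart than the group medians.

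**Figure D1:**
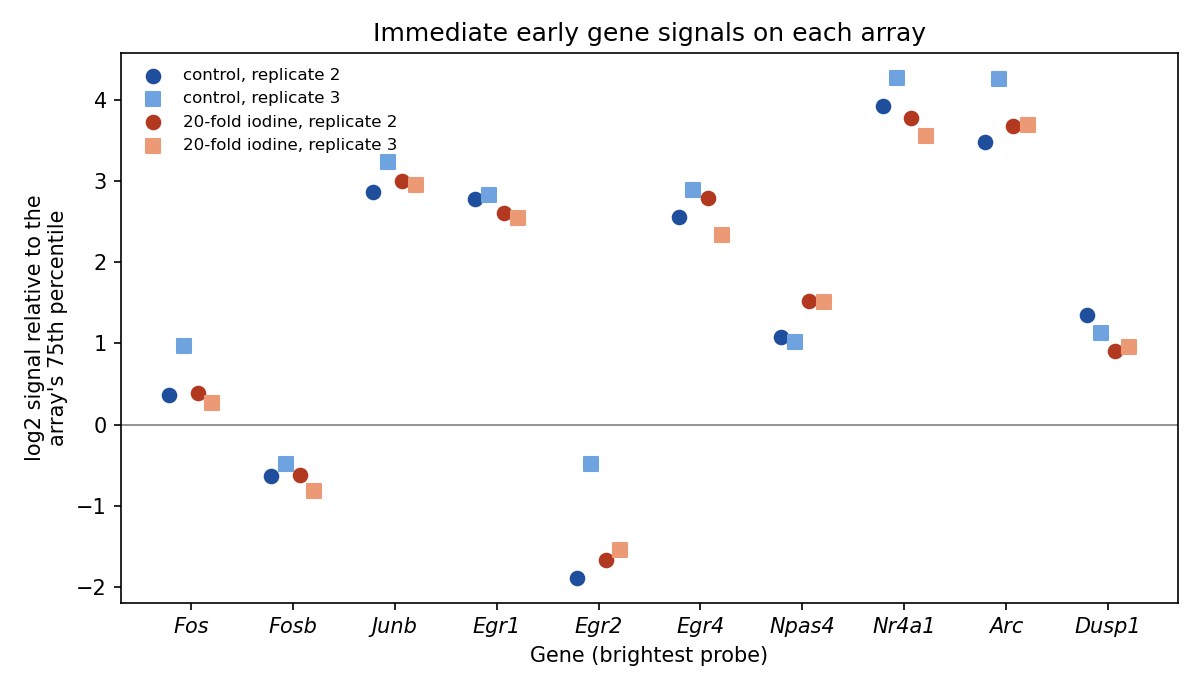
Signals of the 10 immediate early genes on each of the 4 arrays, as log2 signal minus the array's 75th percentile (vertical axis), by gene (horizontal axis, ordered by protein family). Each point is 1 array, blue for control and red for 20-fold iodine, circles for replicate 2 and squares for replicate 3. Control replicate 3 lies above the other 3 arrays for Fos, Egr2 and Arc, and both iodine arrays lie above both controls for Npas4. Heights of different genes come from different probes and are not comparable.

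Signals below are log2 values relative to the 75th percentile of the array, so that 0 is the level of that percentile, and they compare arrays for 1 probe but not 1 probe with another. Differences are log2, 20-fold iodine minus control, with the standard error (SE) of the limma fit on 2 arrays per group.

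Among the AP-1 genes, Fos had signals of 0.37 and 0.97 in control replicates 2 and 3 and of 0.39 and 0.27 in iodine replicates 2 and 3. Control replicate 3 stood alone, and control replicate 2 lay between the iodine arrays. The Fos difference was -0.34 ± 0.22 (adjusted p = 0.767 by limma), and it was -0.04 without control replicate 3 and -0.63 without control replicate 2. Fosb, whose product shares the dimer partners of Fos, had -0.64 and -0.49 in the control arrays against -0.62 and -0.82 in the iodine arrays, with overlapping groups and a difference of -0.16 ± 0.11. It was -0.08 without control replicate 3, -0.06 without iodine replicate 3 and -0.26 without iodine replicate 2. The other Fosb probe gave processed signals of 1.03 to 2.72 intensity units, not well above background on any array, so it carries no comparison.

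Junb, a JUN family partner in AP-1, had signals of 2.86 and 3.23 in the control arrays against 3.00 and 2.95 in the iodine arrays on its brighter probe. Both iodine arrays lay between the controls. The difference was -0.07 ± 0.15, with a 95% confidence interval from -0.47 to 0.33, and 0.12 without control replicate 3. The dimmer Junb probe, at -3.51 and -3.11 in the control arrays against -3.57 and -2.97 in the iodine arrays, differed by 0.05 ± 0.26 in the fit over all probes. The sign thus differed between the probes of Junb, both differences being smaller than their errors.

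Of the zinc finger genes, Egr1, widely used as a marker of neuronal activity, had the most even replicates. Its signals were 2.78 and 2.83 in the control arrays against 2.61 and 2.55 in the iodine arrays. The groups did not overlap, and the replicates lay 0.05 apart in each group. The difference was -0.23 ± 0.07 (0.854 times the control level, unadjusted p = 0.0345, adjusted p = 0.668 by limma), and it stayed between -0.25 and -0.20 in each fit without 1 array.

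Egr2, also known as Krox20, had uneven controls. Its signals were -1.89 and -0.48 in the control arrays against -1.67 and -1.54 in the iodine arrays. In intensity units these were 43.0, 110.3, 47.0 and 49.7, so that control replicate 3 was the only array set apart. The gap of 1.40 between the controls was larger than that of 99.6% of all genes, whose median gap was 0.10. The difference was -0.42 ± 0.49 (adjusted p = 0.856 by limma), and 0.28 without control replicate 3. Egr4, another EGR family gene, had 2.56 and 2.90 in the control arrays against 2.79 and 2.34 in the iodine arrays. Its arrays interleaved, with iodine replicate 3 lowest, and the difference was -0.16 ± 0.21. It was 0.0015 without control replicate 3, 0.060 without iodine replicate 3, -0.33 without control replicate 2 and -0.39 without iodine replicate 2.

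Npas4, which is known to respond to calcium entry rather than to growth factors, was the member whose groups stood farthest apart relative to their spread. Its signals were 1.08 and 1.02 in the control arrays against 1.52 and 1.51 in the iodine arrays. Both iodine arrays lay above both controls, and the replicates differed by 0.05 in the control group and 0.01 in the iodine group. The difference was 0.47 ± 0.07 (1.38-fold, 95% confidence interval 0.27 to 0.66). With an unadjusted p of 0.0025 Npas4 ranked 55 among 16794 genes, and its adjusted p by limma was 0.668. The difference was 0.44 to 0.49 in the 4 fits without 1 array and 0.36 with normexp background correction, which draws dimmer signals together.

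Nr4a1 had signals of 3.93 and 4.27 in the control arrays against 3.78 and 3.55 in the iodine arrays. The groups did not overlap, but the gap between the groups, 0.15, was smaller than the gap within either group (0.35 in controls and 0.22 in iodine). The difference was -0.43 ± 0.16 (0.741 times the control level, unadjusted p = 0.0508, adjusted p = 0.679 by limma), and -0.26 without control replicate 3. Arc, whose messenger RNA travels to active dendrites, had 3.48 and 4.26 in the control arrays against 3.68 and 3.70 in the iodine arrays. The iodine arrays differed by 0.02 and both lay between the controls, which differed by 0.79, more than in 98.0% of all genes. The Arc difference was -0.18 ± 0.28 (95% confidence interval -0.95 to 0.59), and 0.21 without control replicate 3.

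Dusp1, a feedback inhibitor that glucocorticoids also induce, had 1.35 and 1.13 in the control arrays against 0.91 and 0.96 in the iodine arrays. The groups did not overlap, and control replicate 2, not replicate 3, was the highest array. The difference was -0.30 ± 0.10 (0.811 times the control level, unadjusted p = 0.0427, adjusted p = 0.668 by limma). It was -0.41 without control replicate 3 and -0.19 without control replicate 2.

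**Figure D2:**
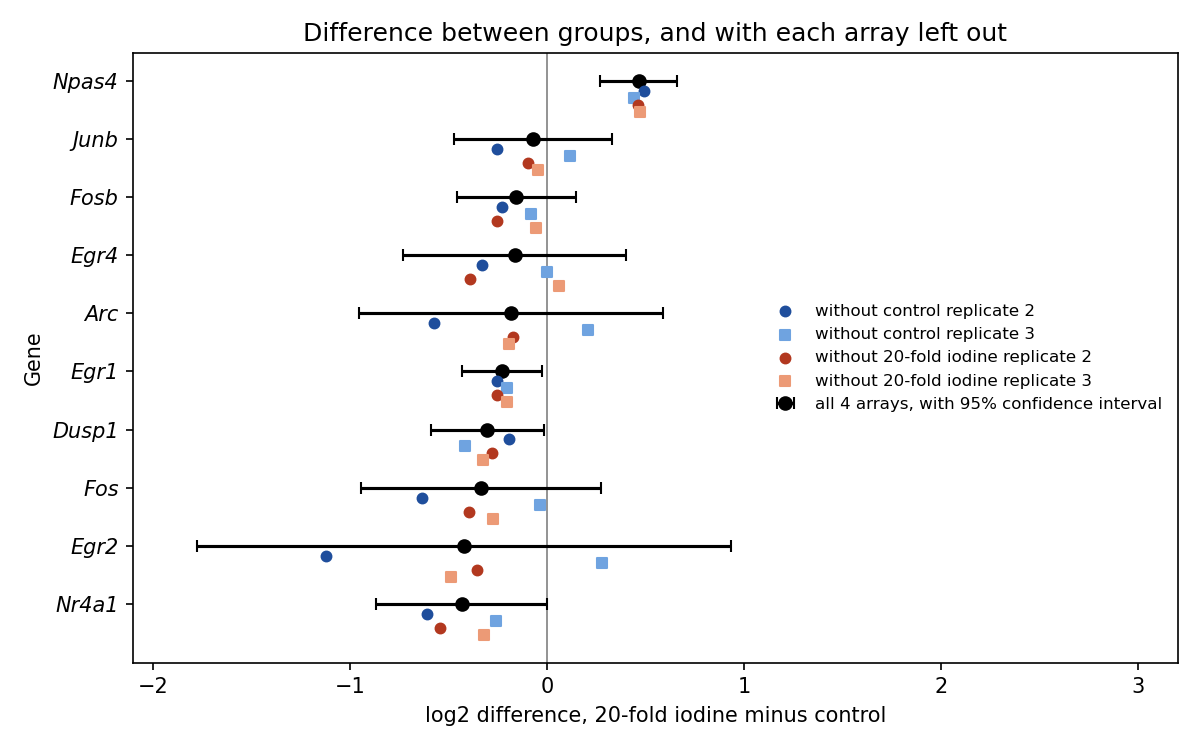
Log2 difference of each gene, 20-fold iodine minus control (horizontal axis), by gene (vertical axis). Black points are the fit on all 4 arrays with its 95% confidence interval, and coloured points are fits with 1 array left out. Npas4 stays between 0.44 and 0.49, Egr1 between -0.25 and -0.20, and the points of Egr2, Arc, Junb and Egr4 cross 0 when control replicate 3 is left out, as does that of Egr4 without iodine replicate 3.

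The members differed in how far apart their control arrays lay. In Fos, Egr2 and Arc the gap between the controls was 0.60 to 1.40, and the iodine arrays lay within 0.13 of each other. In Fosb, Egr1, Npas4 and Dusp1 the control gap was at most 0.22, and in Junb, Egr4 and Nr4a1 it was 0.33 to 0.37. The median size of the control gap was 0.34 over the 10 genes and 0.10 over all genes, while that of the iodine gap was 0.09 over the 10 genes and 0.11 over all genes. The control gap ran in the opposite direction in Npas4 and Dusp1 from that in all the other members. The genes were grouped by a shared route of induction, so they cannot be counted as independent measurements. Whether a common activity set their levels on these arrays was not tested.

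Marker lists of other cell types and of neighbouring tissue also varied between the arrays. The summed signal of 7 of 7 meningeal fibroblast markers, in multiples of the 75th percentile, was 234.1 and 259.5 in control replicates 2 and 3 and 101.9 and 268.6 in iodine replicates 2 and 3, and that of 7 of 7 choroid plexus markers was 163.6 and 144.8 in the control arrays against 53.7 and 271.2 in the iodine arrays. Markers of dentate granule neurons were measured in 7 of 7 genes and summed to 26.6 and 30.7 in the control arrays against 31.2 and 26.2 in the iodine arrays, and 8 of 8 pyramidal neuron markers to 157.2 and 187.9 in the control arrays against 174.5 and 150.9 in the iodine arrays. Microglia markers (7 of 7) summed to 34.6 and 40.7 in the control arrays against 40.4 and 35.4 in the iodine arrays. Thalamus and habenula markers (7 of 7) had median deviations from the 4-array mean of 0.06 and -0.29 in the control arrays against -0.24 and 0.47 in the iodine arrays. The sums are led by the brightest genes, such as Camk2a among the pyramidal markers with a log2 signal of 6.93 on control replicate 3. The median deviation on control replicate 3, which weights genes equally, was 0.31 for fibroblast, 0.15 for choroid plexus, 0.13 for microglia, 0.10 for granule neuron, -0.03 for pyramidal neuron and -0.29 for thalamus and habenula markers, against 0.23 for the members. Their part in the result was not tested, and in a bulk sample a smaller share of activated cells and less RNA per cell cannot be told apart. The ribosomal RNA gene Rn28s1 had signals of 7.37 and 7.30 in the control arrays against 8.16 and 8.09 in the iodine arrays, separating the groups as Npas4 did, and a link to the members was not tested.

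**Figure D3:**
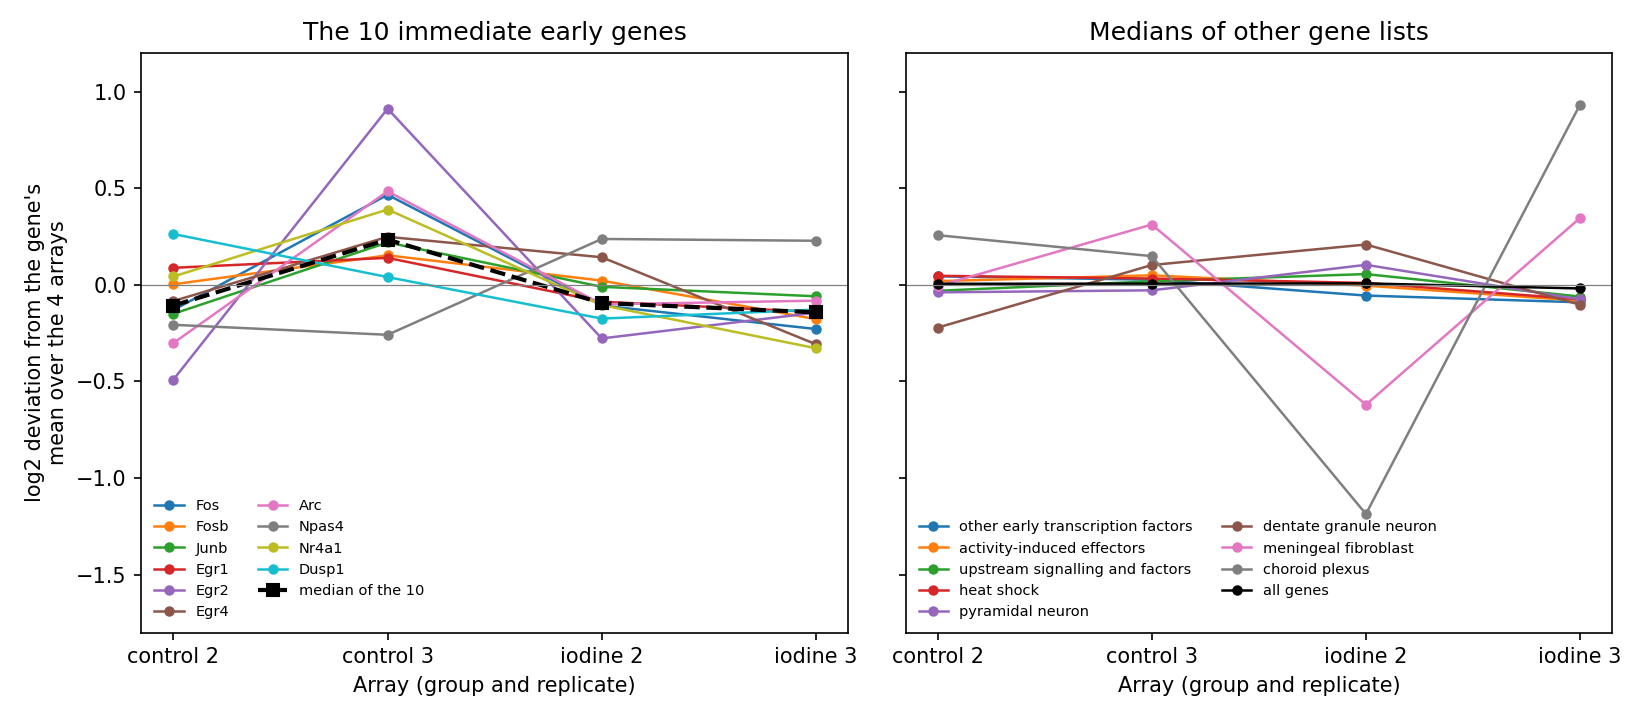
Log2 deviation from the mean over the 4 arrays (vertical axis) on each array (horizontal axis). The left panel shows the 10 immediate early genes, with their median dashed in black, and the right panel the medians of other gene lists and of all genes. Among the members, Egr2, Arc and Fos peak on control replicate 3 and Npas4 is higher on both iodine arrays, whereas choroid plexus markers range from -1.19 to 0.93 between the iodine arrays.

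Other early transcription factor genes, 22 of 23 of which could be tested, gave a median difference of -0.10, with 17 lower and 5 higher and 0 past the adjusted threshold. Of the 22 genes 10 were lower and 2 higher without overlap, against 21.9% and 17.9% of all genes. The genes of this list with the smallest unadjusted p were Fosl2, an AP-1 subunit, at -0.31 ± 0.11, and Csrnp1 at -0.17 ± 0.08. Next were Klf2, a Kruppel-like factor abundant in endothelium, at -0.50 ± 0.22, and the early response gene Ier3 at -0.52 ± 0.23. Fosl2 had signals of 1.42 and 1.17 in the control arrays against 1.01 and 0.96 in the iodine arrays, and its other probe differed by -0.39. Klf2 had 0.89 and 0.30 in the control arrays against 0.00 and 0.19 in the iodine arrays, so that control replicate 2 was the array apart, as in Dusp1 and unlike Fos. Jun, Jund, Egr3, Nr4a2 and Nr4a3, family relatives of members, were chosen here after their values were seen. They differed by 0.24 ± 0.12, -0.03 ± 0.08, -0.08 ± 0.10, -0.12 ± 0.08 and 0.10 ± 0.15. Their other kept probes gave 0.09 for Jund, -0.23 for Egr3, -0.21 for Nr4a2 and 0.38 for Nr4a3.

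Activity-induced effector genes, which act at synapses or in signalling, had a median of -0.06 over 25 genes, with 15 lower, 10 higher and 0 past the adjusted threshold. Of the 25 genes 9 were lower and 5 higher without overlap, against 21.9% and 17.9% of all genes, and the 4 with the smallest unadjusted p were among the 9. At an unadjusted p under 0.05 by limma 6 of the 25 were lower and 0 higher, against 584 lower and 650 higher of all 16794 genes. Ccn1, a matrix protein gene, differed by -0.45 ± 0.11, with signals of -1.40 and -1.61 in the control arrays, both above those of the iodine arrays. Sik1, a kinase induced by CREB, differed by -0.45 ± 0.11, with -1.59 and -1.47 in the control arrays against -2.09 and -1.86 in the iodine arrays. Trib1, a pseudokinase gene, differed by -0.43 ± 0.11 and Tiparp, of the poly-ADP-ribose polymerase family, by -0.38 ± 0.12 (adjusted p = 0.668 by limma for each of the 4).

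The genes whose pattern over the 4 arrays was most like the median of the members were sought among these 2 lists. The measure was the root mean square difference between deviations from the 4-array mean, in log2 units. It was 0.071 for Gadd45b, 0.08 for Dusp6 and 0.10 for Rgs2. Outside these lists the microglia marker P2ry12 had 0.067 and the astrocyte marker Slc1a3 0.073. The pattern was thus not particular to activity-induced genes, although the rest of the microglia and astrocyte markers lay farther off. Gadd45b, linked to DNA demethylation, had 0.14 and 0.55 in the control arrays against 0.04 and 0.10 in the iodine arrays, the shape also seen in Fos. Dusp6, a phosphatase specific for ERK, had 2.46 and 2.69 in the control arrays against 2.57 and 2.40 in the iodine arrays, so that its groups overlapped. Rgs2, a regulator of G protein signalling, had 3.30 and 3.37 in the control arrays against 3.14 and 3.18 in the iodine arrays. With 4 arrays such likeness is a description only.

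Genes of the signalling upstream had a median of -0.02 over 29 genes, with 15 lower, 14 higher and 0 past the adjusted threshold. Mef2d, a calcium-responsive factor, differed by 0.25 ± 0.07 and by the same amount on its other probe. Elk4, a partner of SRF, differed by 0.34 ± 0.13 on its brightest probe, while other probes gave differences down to -0.31. Grin1, the obligatory NMDA receptor subunit, differed by 0.16 ± 0.08, with another probe at -0.07. Rps6ka3, which encodes the CREB kinase RSK2, had -2.03 ± 0.35 on its brightest probe, with 0.12 and 0.16 in the control arrays against -2.38 and -1.39 in the iodine arrays. Its other kept probes differed by 0.13 and 0.01, so the difference was not shared by the probes of the gene. Partners and corepressors of the members had a median of -0.05 over 6 of 7 genes, with 4 lower and 2 higher. Among them Nab2, which represses EGR factors, differed by -0.15 ± 0.14, with another probe at 0.03. Heat shock genes, induced by heat and other stresses that damage proteins, had a median of -0.06 over 7 genes, with Hspa1b at -0.21 ± 0.12 and Hspa1a at -0.15 ± 0.09. None of the partner or heat shock genes passed the adjusted threshold.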

How the data were processed

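Scanner files of the 4 arrays, as deposited, came from Agilent Feature Extraction, version 12.1.1.1 according to their headers. The intensity that the authors deposited and that is used here is the processed signal, which the software had background-subtracted and detrended within the array; per the file headers no normalization between arrays was done. Flags of 0 or 1 per spot, as deposited, marked spots well above background, saturated spots (0) and outliers (47 to 70 spots per array). Outliers were left out, except where every spot of a probe on an array was flagged (4 such cases). Spots of a probe were averaged as log2, and the array's 75th percentile (144.3 to 158.8 intensity units) was subtracted. Each member probe was 1 spot, and the median SD of repeated spots above 100 intensity units was 0.03 to 0.05 log2 units.

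Probes were kept where at least 2 of the 4 arrays showed them well above background. Accessions were matched to RefSeq symbols of GRCm38.p6 (32994 probes, 58.3%), and the kept probe with the highest mean over all arrays stood for its gene. Differences were fitted with limma 3.58.1 (lmFit, eBayes, two-sided) in R 4.3.3, with the data.table package (1.17.8) for reading, with Benjamini-Hochberg adjustment over all genes, or over all probes where stated. The fit was tested on simulated data. Plots used matplotlib 3.10.9.

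Members, lists and the rule for named genes were chosen with earlier results of these data known. The rule took every kept member probe, the 4 genes with the smallest unadjusted p in the larger pathway lists and 2 in the lists of partners and of heat shock genes, and the 3 genes most like the members. A gene that the rule named among the partners is not reported here. The marker lists of interneurons, astrocytes, oligodendrocytes, endothelium, and thalamus and habenula had median differences of -0.11, 0.13, 0.12, 0.06 and 0.32. Those of choroid plexus, meningeal fibroblasts, pyramidal neurons, dentate granule neurons and microglia had -0.36, -0.27, -0.05, 0.05 and 0.01. In each of these marker lists 0 genes were past the adjusted threshold. The labels do not say whether the replicate numbers pair the samples. The correlation of the replicate gaps of the groups over genes was -0.02, which cannot exclude pairing.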

Additional observations from a re-analysis of the deposited data

How the results depend on the processing

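The alternatives tried were normexp (offset 50), quantile normalization, median scaling, no filter, a filter on all 4 arrays, robust variances with an intensity trend, averaging the probes of each gene, the replicate block and leaving out each array. No gene passed the adjusted threshold in any of the 12, against 921 to 1512 genes at an unadjusted p under 0.05, and no scaling moved the median of all genes by over 0.1. Tested singly, 25 probes passed with normexp and 53 with the intensity trend, none of them a member's (smallest adjusted p of a member probe, 0.085). The members' median kept its sign, from -0.29 to -0.018 in the fits without 1 array (the lone array left in a group is taken to vary as the other pair does), and was -0.21 with the replicate block. In the fits without 1 array the difference ranged from -0.25 to 0.12 for Junb, -1.12 to 0.28 for Egr2, -0.39 to 0.060 for Egr4 and -0.58 to 0.21 for Arc, and the positive values arose without control replicate 3 (0.0015 for Egr4), or without 20-fold iodine replicate 3 for the 0.060 of Egr4. The other 6 members kept their sign in all settings. The median of upstream genes turned to 0.046 with the mean of probes, and to 0.0034, 0.036 and 0.073 without control replicate 2, control replicate 3 and 20-fold iodine replicate 3 (-0.047 without 20-fold iodine replicate 2). The medians of other early factors (-0.16 to -0.05), effectors (-0.11 to -0.01), partners (-0.08 to -0.03) and heat shock genes (-0.14 to -0.01) kept their sign. The cause of each change was not tested. With 2 arrays per group, the interval of Egr2 spanned -1.78 to 0.93, and dim probes near background limit precision further.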
